A study of Mus musculus with 16 samples.

Results

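The mitochondrial ribosomal protein genes were measured in jejunal enteroids that had lost functional myosin Vb (MYO5B), an apical recycling motor whose loss causes microvillus inclusion disease. The genes were taken by name: every protein-coding gene whose symbol is Mrpl or Mrps followed by a number and at most 1 letter. This gave 78 genes, of 22046 protein-coding genes and 54532 genes in all. Of them, 51 were counted with the large subunit and 27 with the small subunit, Mrps36 by its name alone. Mrps30 and Mrps18a were counted with the large subunit, since their proteins sit there despite their names.

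Mitochondria keep a ribosome of their own, which resembles the bacterial ribosome more than the cytosolic one. It reads the messages of the mitochondrial genome, all of which code for membrane subunits of the respiratory chain and of ATP synthase. Its RNAs come from mitochondrial DNA, but its proteins are encoded in the nucleus, made in the cytosol and imported, so that each ribosome needs the products of both genomes. Some of these proteins have bacterial counterparts and others are found only in mitochondria. Intestinal epithelial cells rely on mitochondrial respiration as they leave the crypt and mature.

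In all, 16 libraries were compared, in 4 groups of 4 cultures, which the study describes as coming from 4 mice per group. Whether a mouse gave cultures to more than 1 group is not given in the sources used here. MYO5BΔIEC enteroids carried Vil-CreERT2;Myo5b-flox/flox and received vehicle (PBS) in differentiation medium. MYO5B(G519R) enteroids carried Vil-CreERT2;Myo5b-flox/G519R, so that the mutant allele is the only one left after recombination. The last group was MYO5BΔIEC given Compound-1, a synthetic agonist of the lysophosphatidic acid receptor LPAR5, at 100 nM for 2 days. These 3 groups were exposed to 1 µM 4-OH-tamoxifen for 24 h to switch on Cre. The control cultures carry only the label "Control" and no treatment. The methods describe them as Vil-CreERT2;Myo5b-flox/flox enteroids given ethanol, while a figure legend of the study calls them healthy littermates. Their genotype is thus not certain. Exposure to tamoxifen and active Cre cannot be told apart from loss of MYO5B in any comparison with control. For MYO5B(G519R), neither can the different genotype of the donor mice. Cre was driven by the villin promoter, which is active in the intestinal epithelium, and all cultures were shifted to a medium without Wnt ligands and EGF.

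Libraries held 27804968 to 40101729 counts, and mitochondrial ribosomal proteins took 0.285% to 0.509% of them. Values are given as CPM, counts scaled to a common library size with the trimmed mean of M values (TMM). Control culture 1 stood apart from the other controls. It had the lowest value of the 4 controls for 68 of the 77 members with counts, its members summed to 3872 CPM against 5584 to 5973 CPM in the other 3, and its cytosolic ribosomal proteins summed to 78845 CPM against 120121 to 148456 CPM. Counts over the family against control are therefore also given without that culture. Mitochondrially encoded genes took 6.41% to 10.4% of the counts in control and 3.79% to 6.63% in the other groups, and leaving them out of the library sizes changed none of the counts of members called. In MYO5BΔIEC, Myo5b had 128 ± 31.0 CPM against 189 ± 29.9 CPM in control (SD, n = 4), with overlapping ranges and an adjusted p of 0.0503. It had 150 ± 17.0 CPM in MYO5B(G519R), and 111 ± 26.8 CPM in the Compound-1 cultures. Epithelial markers were high everywhere (summed level of 10 genes, 8506 to 16031 CPM). For 7 fibroblast markers the summed level was 8.51 to 43.1 CPM, with Col3a1, Dcn and Lum at 0 and nearly all of it from Vim. Col1a1 was called higher in MYO5B(G519R), at 0.178 to 0.463 CPM against 0 to 0.160 CPM in control. The 4 endothelial markers summed to 0.269 to 1.76 CPM. Of the immune markers with enough counts to test, Cd68 had 3.24 to 8.75 CPM in MYO5BΔIEC against 2.16 to 3.91 CPM in control and was called higher there (log2 fold change of 1.09 ± 0.33, adjusted p of 0.033), and Itgam had 1.77 to 2.97 CPM against 1.19 to 1.83 CPM and did not pass. The part of these markers in the values below was not tested.

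All 77 measured members had at least 100 counts in every library and entered every test. The exception was Mrpl53 (chr6:83109040-83109939, plus strand), with 0 counts in all 16 libraries. Its whole span lies inside Gm42688 on the same strand, which had 23 to 43 counts, and how reads shared by 2 genes were counted is not given in the sources used here. A count of 0 allows up to 3 counts in a library, but for Mrpl53 it sets no limit on the transcript. The members lie on 17 chromosomes, with 11 on chromosome 11, and 41 of them overlap the span of another gene, 13 on the same strand.

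Levels were compared between members per kilobase of the gene length in the table. Mrpl34 was the most abundant, with a median of 94.3 CPM per kilobase over the 16 cultures. Mrpl52 at 64.8, Mrpl12 at 63.3, Mrps21 at 63.2 and Mrpl54 at 53.3 CPM per kilobase followed. Mrpl12 belongs to the stalk that recruits translation factors, Mrps21 is the counterpart of bacterial S21, and Mrpl52 and Mrpl54 are particular to mitochondria. The lowest measured members were Mrpl33 at 4.57, Mrps25 at 4.64, Mrpl32 at 4.92 and Mrpl48 at 5.04 CPM per kilobase. The order depended on the length used. Per kilobase of principal transcript Mrpl52 came first, at 172, and Mrpl42 second, at 105, while Mrpl34 ranked 4, Mrpl30 rose from rank 28 to rank 5 and Mrpl33 from rank 77 to rank 8.

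**Figure D1:**
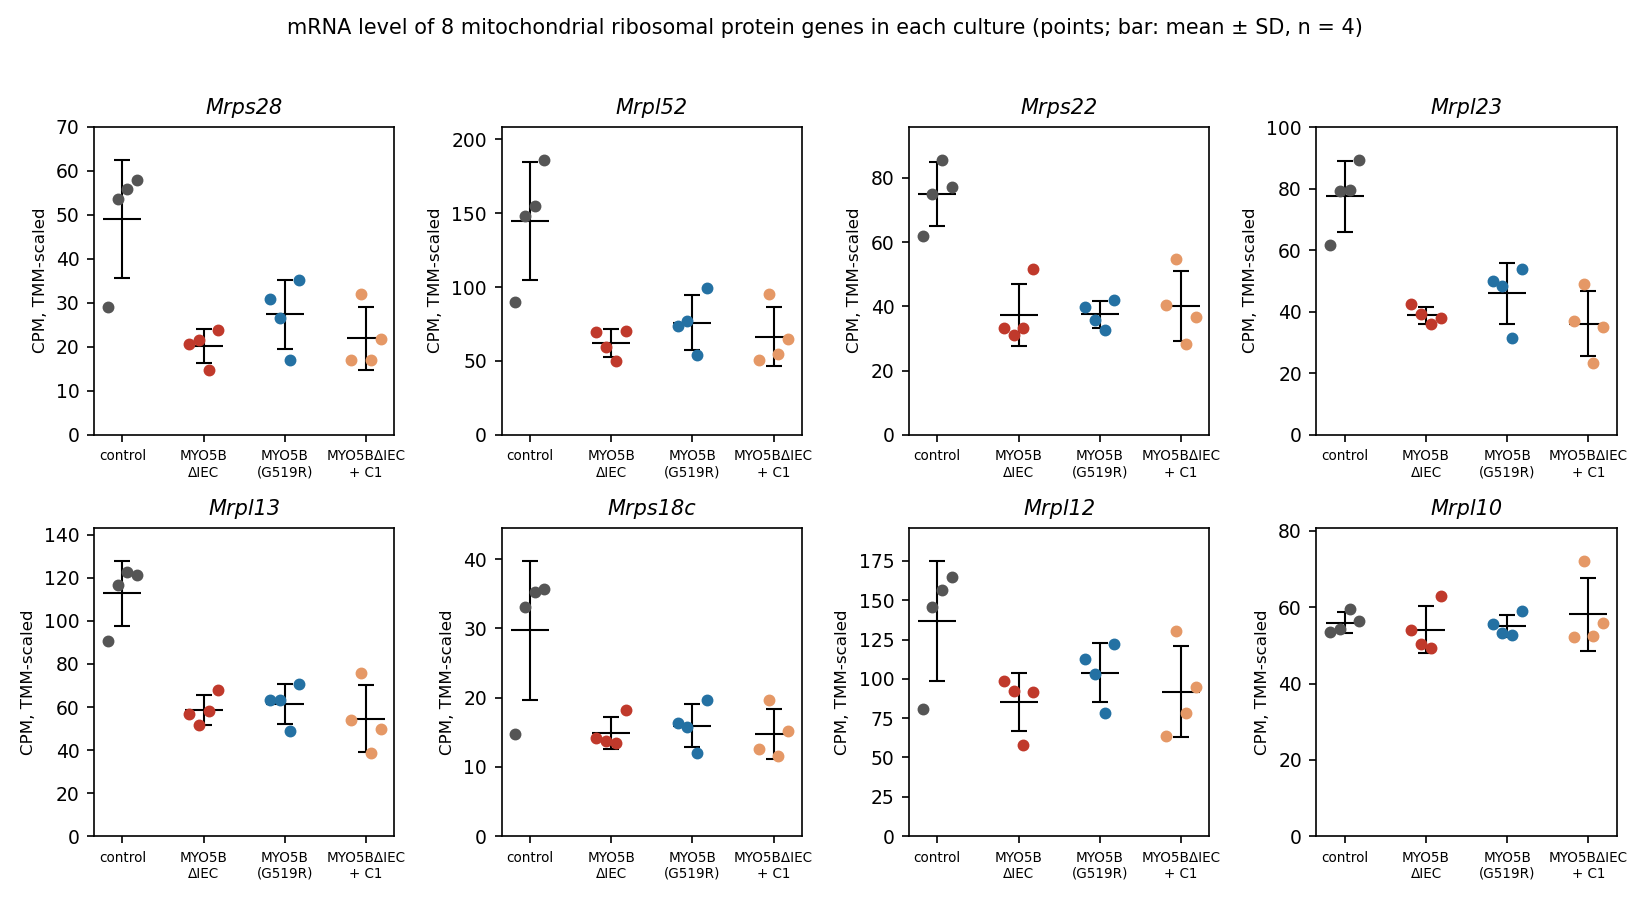
TMM-scaled CPM of Mrps28, Mrpl52, Mrps22, Mrpl23, Mrpl13, Mrps18c, Mrpl12 and Mrpl10, of which Mrpl10 stayed near control. Points are single cultures of the groups control, MYO5BΔIEC, MYO5B(G519R) and MYO5BΔIEC + Compound-1 (C1), and bars are mean ± SD (n = 4). Mrps28 reached at most 23.8 CPM in MYO5BΔIEC and at least 29.1 CPM in control, while the Mrpl10 values of all 16 cultures lay between 49.2 and 72.2 CPM.

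The first question was whether loss of MYO5B changed the family. All 77 measured members had a lower fitted level in MYO5BΔIEC than in control, and 54 were called lower at an adjusted p under 0.05 (edgeR quasi-likelihood test, Benjamini-Hochberg over 17951 genes). None were called higher. Among all genes tested, 13.8% were called lower and 13.5% higher. The median log2 fold change of the members was -0.75, a level 1.68-fold lower, with a range of -1.28 to -0.04, against a median of -0.01 for all genes tested. In 36 members every MYO5BΔIEC culture was below every control culture, as it was in 13.8% of all genes tested. Without control culture 1, 66 members were called lower (20.8% of all genes) and 64 did not overlap (24.6% of all genes), with a median of -0.86, and without control culture 4 the count was 35 (8.22% of all genes).

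The members together summed to 5290 ± 959 CPM in control cultures (SD, n = 4). The sum was 3211 ± 346 CPM for MYO5BΔIEC, 3376 ± 636 CPM for MYO5BΔIEC with Compound-1 and 3621 ± 547 CPM for MYO5B(G519R). Both subunits were lower together. The ratio of summed large-subunit to small-subunit CPM was 2.23 ± 0.05 in control cultures, and it was 2.27 ± 0.07 for MYO5BΔIEC, 2.29 ± 0.03 with Compound-1 and 2.23 ± 0.01 for MYO5B(G519R). In bulk RNA, fewer cells that express a gene and less RNA per cell cannot be told apart.

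**Figure D2:**
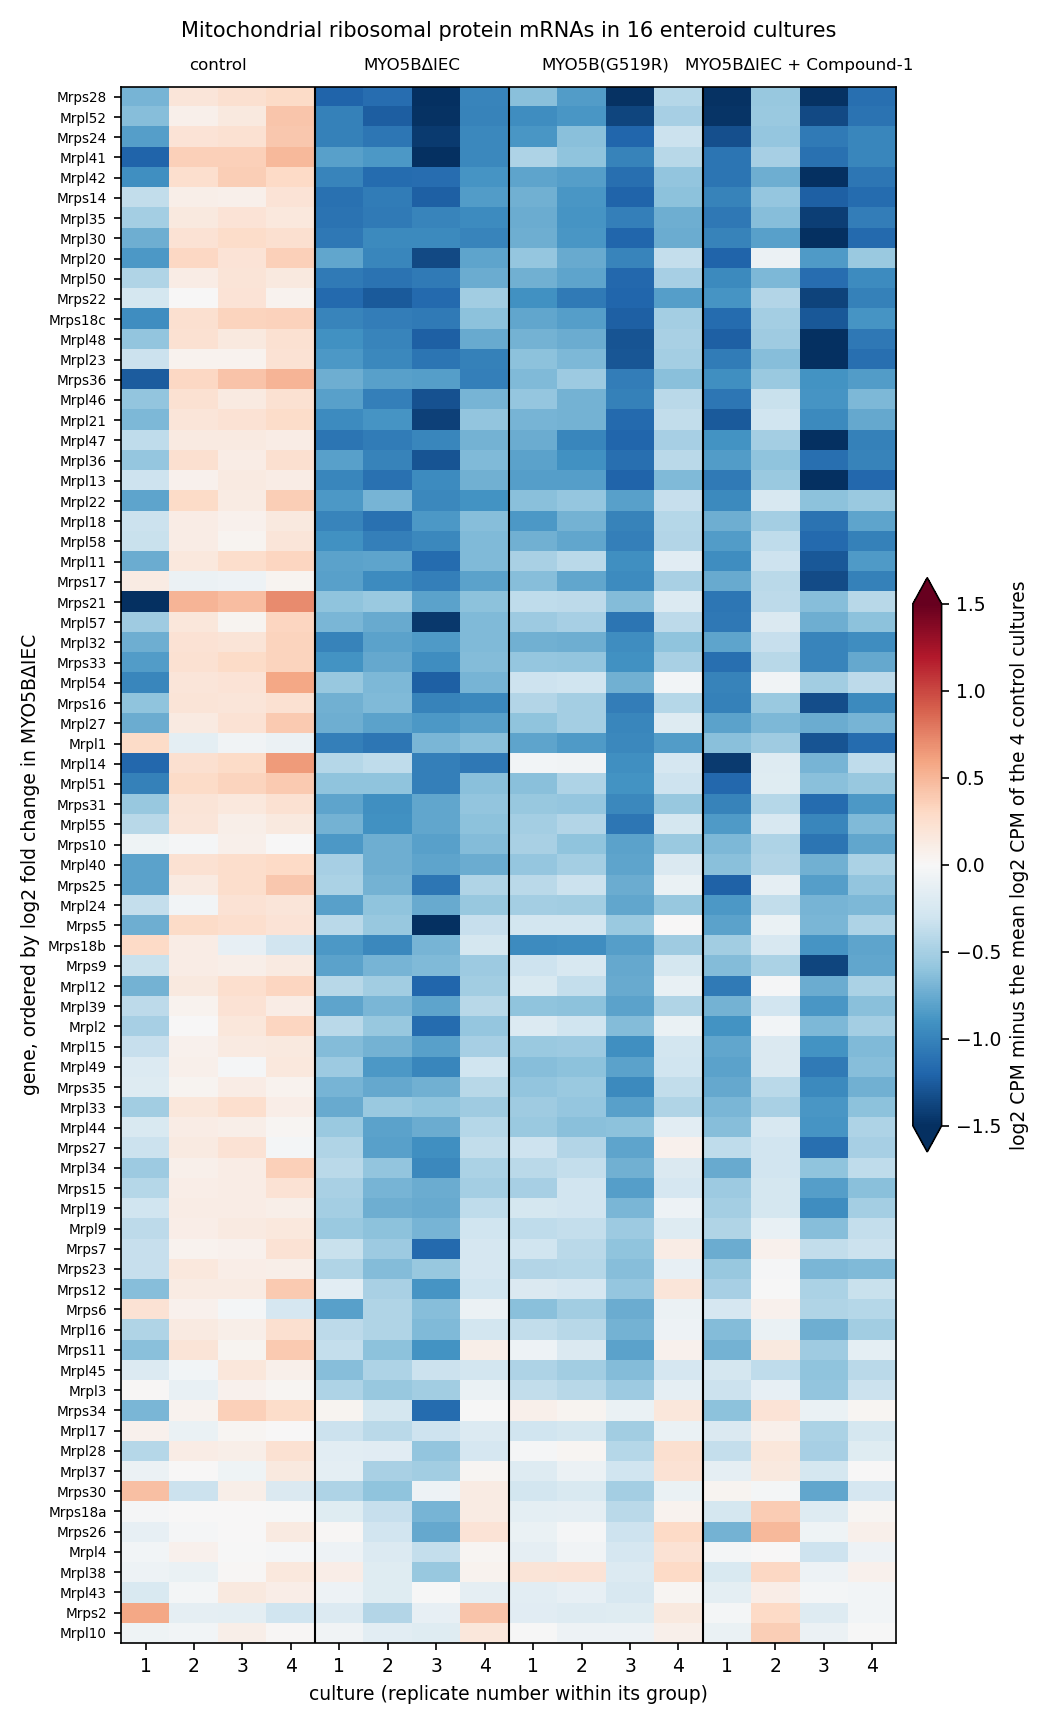
Log2 ratio of each culture's CPM to the control mean for the 77 measured members, with 1 row per gene and 1 column per culture, grouped by condition. Control culture 1 was below the control mean for 69 members, and every culture of the other 3 groups was below it for at least 62.

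The largest decrease in MYO5BΔIEC was that of Mrps28, a small-subunit protein. Control cultures had 29.1, 53.5, 55.8 and 57.9 CPM of Mrps28 and MYO5BΔIEC cultures had 20.6, 21.5, 14.8 and 23.8 CPM. The groups did not overlap, although control culture 1 was close to them, and the log2 fold change was -1.28 ± 0.23 (SE), with an adjusted p of 0.0039. Mrpl52, a large-subunit protein without a bacterial counterpart, had 90.2, 148, 155 and 186 CPM in control and 69.6, 59.4, 50.2 and 70.0 CPM in MYO5BΔIEC. Again the groups were separate, and the log2 fold change was -1.21 ± 0.21 with an adjusted p of 0.0035. Mrps24, the counterpart of bacterial S3, had 50.8, 104, 105 and 119 CPM in control and 44.7, 42.6, 33.4 and 46.0 CPM in MYO5BΔIEC. Its log2 fold change was -1.18 ± 0.24 (adjusted p of 0.0061). Mrps24 shares 2264 bases on the same strand with Urgcp.

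Mrpl41, a large-subunit protein particular to mitochondria, had 18.4, 54.1, 54.2 and 59.1 CPM in control and at most 23.9 CPM in MYO5BΔIEC. Here control culture 1 fell among the MYO5BΔIEC cultures, and the log2 fold change was -1.14 ± 0.32 (adjusted p of 0.023). Mrpl42, another large-subunit protein, had 69.3, 157, 169 and 161 CPM in control and 58.8 to 70.8 CPM in MYO5BΔIEC, a log2 fold change of -1.12 ± 0.25. In Mrpl42 too the lowest control lay within the MYO5BΔIEC range. Mrps14, the counterpart of bacterial S14 in the head of the small subunit, did not overlap (61.0 to 90.9 CPM in control, 33.8 to 44.2 CPM in MYO5BΔIEC) and had a log2 fold change of -1.06 ± 0.16. Mrpl35 and Mrpl30, which have bacterial counterparts, also stood clear of control. Mrpl35 had 45.1 to 73.9 CPM in control and 29.9 to 33.5 CPM in MYO5BΔIEC, and Mrpl30 had 90.6 to 181 CPM and 71.1 to 77.3 CPM. Their log2 fold changes were both -1.04.

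The MYO5B(G519R) cultures carry a point mutant in place of a deleted allele, and the second comparison asked whether the family was lower there too. It was, to a smaller median extent: 37 members were called lower and none higher, where 13.7% of all genes tested were called lower and 13.1% higher. The median log2 fold change was -0.61 (1.52-fold lower), with a range of -0.997 to 0.13, against -0.05 for all genes tested. Of the 77 members, 76 were below control in the fit, and 20 did not overlap between the groups, with a background of 13.8%. Without control culture 1, 60 were called lower (22.1% of all genes) and 60 did not overlap (26.3% of all genes), with a median of -0.65. Leaving out any 1 of control cultures 2 to 4 or MYO5B(G519R) cultures 1 to 3 brought the count down to between 18 and 22, where 7.99% to 9.22% of all genes were called lower. Culture 3 of MYO5B(G519R) was lowest of its group for 74 members and culture 4 highest for 70. In MYO5BΔIEC, culture 3 was lowest for 46 members and culture 4 highest for 55, and culture 4 was also highest for 45 members in control.

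**Figure D3:**
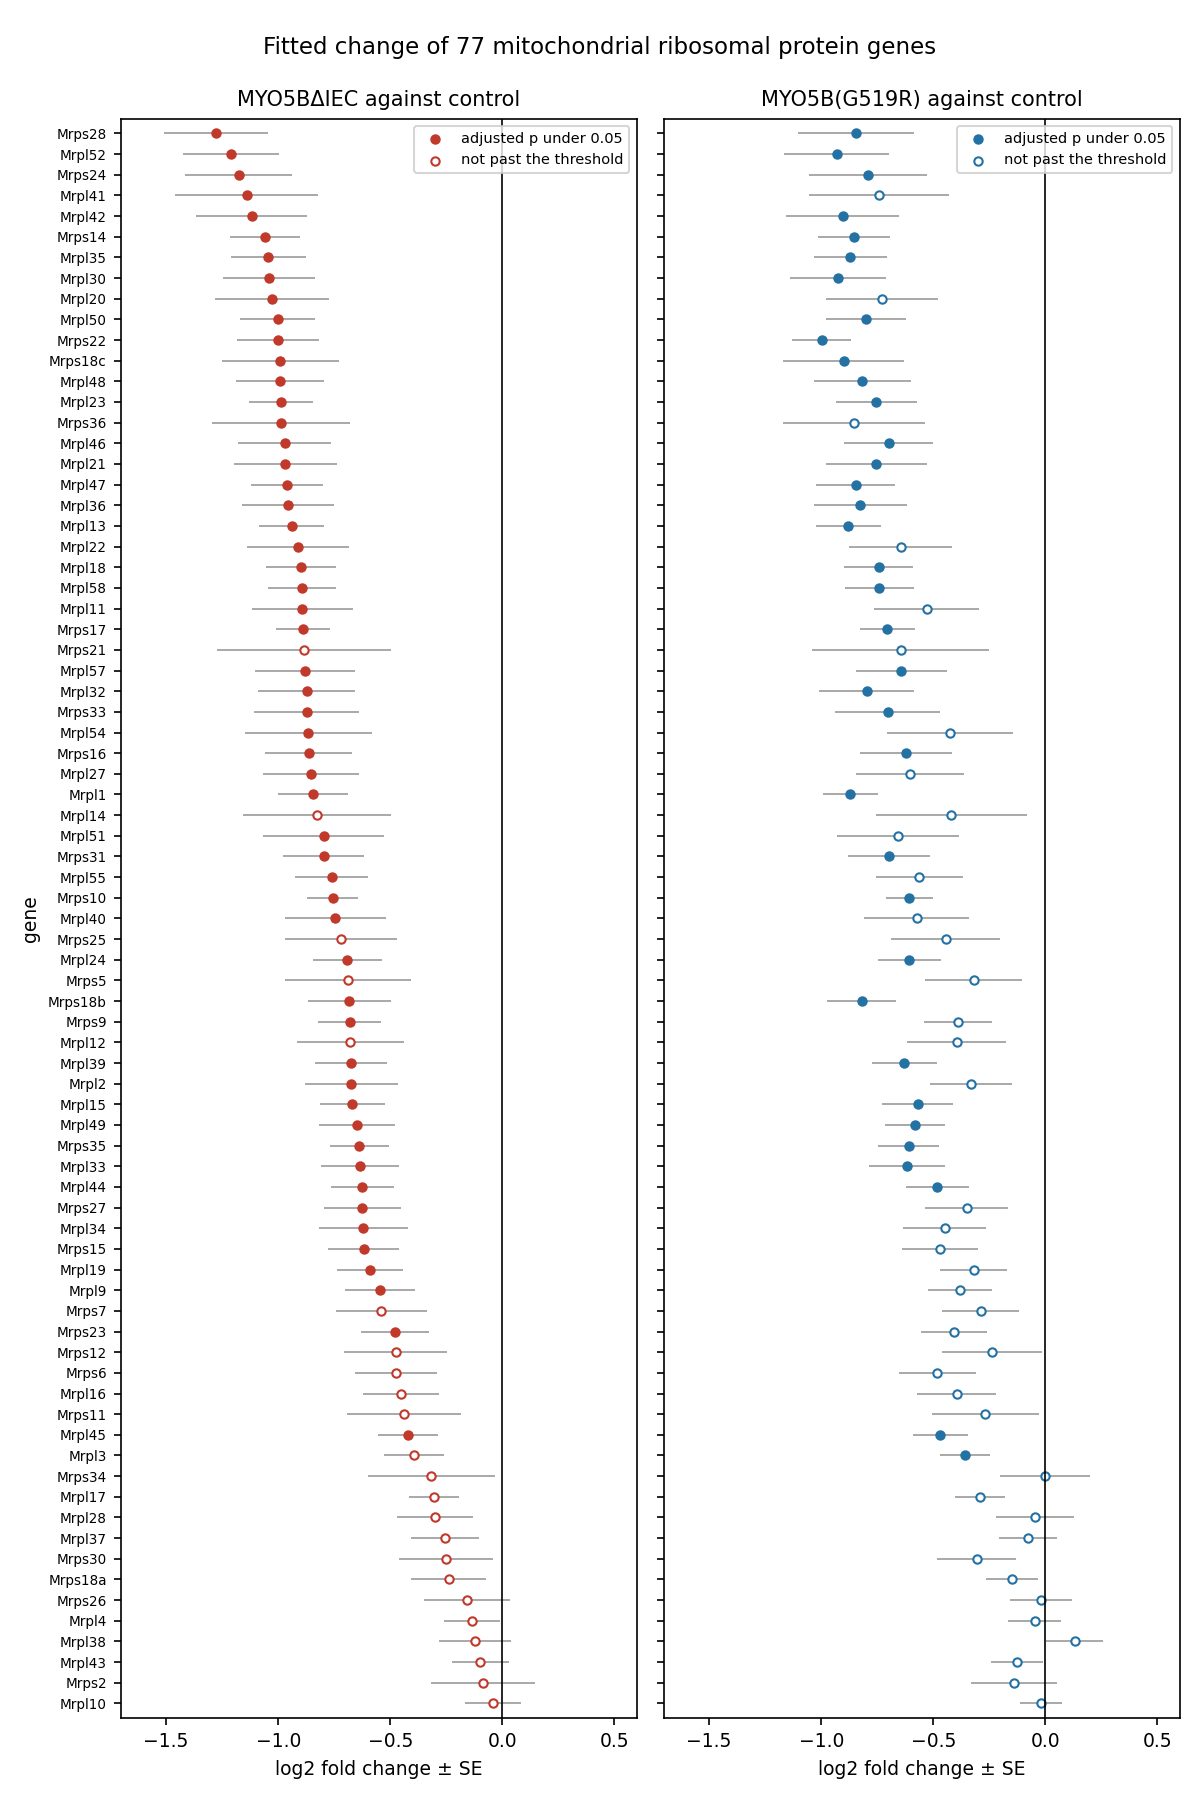
Fitted log2 fold change against control with its SE for each measured member in MYO5BΔIEC and MYO5B(G519R). Filled points passed an adjusted p of 0.05 in edgeR. All 77 points of MYO5BΔIEC lie below 0, with a median of -0.75, and 76 of the 77 points of MYO5B(G519R) do, with a median of -0.61.

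Mrps22 had the largest decrease in MYO5B(G519R). It encodes a small-subunit protein particular to mitochondria. Control cultures had 61.8, 74.9, 85.7 and 77.3 CPM and MYO5B(G519R) cultures had 39.7, 35.7, 32.7 and 42.1 CPM, which do not overlap. The log2 fold change was -0.997 ± 0.13 with an adjusted p of 0.0020, and it was -1.001 ± 0.18 in MYO5BΔIEC. Mrpl52 had 73.8, 76.8, 54.1 and 99.6 CPM in MYO5B(G519R), so that its highest culture exceeded control culture 1, and its log2 fold change was -0.93 ± 0.23. Mrpl30 had 65.9 to 90.3 CPM, all just below the lowest control of 90.6 CPM, and a log2 fold change of -0.93 ± 0.21. Mrpl42 (-0.90) and Mrps18c (-0.90) overlapped control through control culture 1.

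Another set of large-subunit proteins with bacterial counterparts completed the group with the largest decreases in MYO5B(G519R), and none of them overlapped control. Mrpl13 had 90.6 to 123 CPM in control and 48.7 to 70.6 CPM in MYO5B(G519R), a log2 fold change of -0.88 ± 0.15. Mrpl1, a protein of the mobile stalk where spent transfer RNA leaves, had 50.6 to 68.8 CPM and 28.7 to 32.5 CPM, a log2 fold change of -0.87 ± 0.12. In Mrpl1, control culture 1 was the highest of the controls instead of the lowest. Mrpl35 had 31.5 to 38.6 CPM in MYO5B(G519R) and a log2 fold change of -0.87 ± 0.16.

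Since both comparisons use the same control cultures, their calls are not independent, and the values stand side by side only. In all, 36 members were called lower in both, 18 in MYO5BΔIEC but not in MYO5B(G519R), and only Mrpl3 in MYO5B(G519R) but not in MYO5BΔIEC. Mrpl3 had log2 fold changes of -0.39 (adjusted p of 0.052) and -0.36 (adjusted p of 0.039), so that the threshold and not the size set it apart. In 22 members neither these comparisons nor that of the Compound-1 cultures passed. Matching shares of all genes are not given here for these joint counts, so they are not judged against a background.

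By role, the 8 members placed at the rim of the exit tunnel, where the new membrane protein emerges, were lower nearly throughout. In MYO5BΔIEC 7 of 8 were called lower, in MYO5B(G519R) 6 of 8 and with Compound-1 6 of 8. Among all genes tested, 13.8%, 13.7% and 13.7% were called lower in these comparisons. Most of the whole family was also called lower in MYO5BΔIEC, so a trait particular to the rim is not shown. Mrpl23 had 61.6 to 89.6 CPM in control, 35.9 to 42.5 CPM in MYO5BΔIEC and 31.5 to 54.1 CPM in MYO5B(G519R), and its log2 fold changes were -0.99 ± 0.14 and -0.75 ± 0.18. Mrpl47 had log2 fold changes of -0.96 and -0.85, Mrpl22 of -0.91 and -0.65, Mrpl24 of -0.69 and -0.61, Mrpl39 of -0.67 and -0.63, and Mrpl44 of -0.63 and -0.48 in the same order. Of these, Mrpl22 did not pass in MYO5B(G519R), at an adjusted p of 0.062. Mrpl45, which holds the ribosome at the inner membrane, was lower by less, with -0.42 ± 0.14 in MYO5BΔIEC and -0.47 ± 0.12 in MYO5B(G519R). Mrpl17 was the exception, with -0.30 (adjusted p of 0.067) and -0.29 (adjusted p of 0.081).

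In the central protuberance, the part of the large subunit that faces the head of the small one, Mrpl18, Mrpl40, Mrpl46 and Mrpl48 were called lower in MYO5BΔIEC, with log2 fold changes of -0.90, -0.75, -0.97 and -0.99. Of these, 3 passed in MYO5B(G519R), with Mrpl18 at -0.74, Mrpl46 at -0.70 and Mrpl48 at -0.82, and Mrpl40 did not (-0.57, adjusted p of 0.095). Mrpl38 went apart from its neighbours. It had 67.8 to 80.6 CPM in control, 49.0 to 77.5 CPM in MYO5BΔIEC and 63.0 to 89.1 CPM in MYO5B(G519R), all overlapping, and it was the one member with a fitted level above control in MYO5B(G519R) (0.13 ± 0.13, adjusted p of 0.48). With trends of transcript length and GC content removed, as described below, Mrpl38 was at -0.32 in MYO5BΔIEC and -0.15 in MYO5B(G519R), without passing. Mrps30, also of the large subunit, did not pass in any comparison, with -0.25 and -0.30.

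The base of the L7/L12 stalk, which captures elongation factors, was uneven. Mrpl10, which anchors the stalk, had 53.5 to 59.6 CPM in control, 49.2 to 62.8 CPM in MYO5BΔIEC and 52.8 to 59.0 CPM in MYO5B(G519R). Its log2 fold changes were -0.04 ± 0.13 and -0.02 ± 0.10, among the smallest of the family. Mrpl12, the repeated stalk protein, had 80.7, 146, 157 and 165 CPM in control and 57.8 to 98.9 CPM in MYO5BΔIEC, where it narrowly missed the threshold (-0.68 ± 0.24, adjusted p of 0.058). In MYO5B(G519R) it had 78.2 to 122 CPM (-0.40 ± 0.22, adjusted p of 0.22). Mrpl11 was called lower in MYO5BΔIEC (-0.89 ± 0.22) and with Compound-1 (-0.85) but not in MYO5B(G519R) (-0.53, adjusted p of 0.12).

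Mammals have 3 paralogs of bacterial S18, and a small subunit carries the product of Mrps18b and Mrps18c, while Mrps18a belongs to the large one. Mrps18a had 37.1 to 37.8 CPM in control, the tightest of all members, and 23.2 to 40.7 CPM in MYO5BΔIEC, a log2 fold change of -0.24 ± 0.17 (adjusted p of 0.32). Mrps18b had 56.8, 49.7, 42.4 and 37.8 CPM in control, 23.6 to 38.3 CPM in MYO5BΔIEC and 24.0 to 31.8 CPM in MYO5B(G519R). Its log2 fold changes were -0.68 ± 0.19 and -0.82 ± 0.15, and in MYO5B(G519R) its groups did not overlap. Mrps18c had 14.7, 33.1, 35.3 and 35.7 CPM in control, 13.5 to 18.3 CPM in MYO5BΔIEC and at most 19.6 CPM in MYO5B(G519R), and its log2 fold changes were -0.99 ± 0.26 and -0.90 ± 0.27. Mrps18b and Mrps18c passed in each comparison with control, but none of the 3 paralogs passed once the trends with transcript length and GC content described below were removed.

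Mrps36, counted with the small subunit by its name alone, is known as a subunit that joins the parts of the alpha-ketoglutarate dehydrogenase complex. Its values were 20.04, 58.8, 63.6 and 67.4 CPM in control. It had 23.3 to 28.6 CPM in MYO5BΔIEC (-0.99 ± 0.31, adjusted p of 0.037) and 23.0 to 32.4 CPM in MYO5B(G519R) (-0.85 ± 0.32, adjusted p of 0.071). Control culture 1 lay below all of them. With trends of transcript length and GC content removed, as described below for the family, Mrps36 was at -0.30 in MYO5BΔIEC and no longer passed. The Mrps21 values were split in the same way, with 20.3, 93.3, 90.2 and 107 CPM in control and 37.6 to 44.4 CPM in MYO5BΔIEC, and Mrps21 did not pass (-0.89 ± 0.39, adjusted p of 0.11).

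Members with and without bacterial counterparts were both among those called lower. In MYO5BΔIEC these were 22 of 30 large-subunit members with a counterpart and 15 of 20 without, and 8 of 15 small-subunit members with a counterpart and 7 of 10 without. In MYO5B(G519R) the counts were 14 of 30, 11 of 20, 6 of 15 and 5 of 10. Mrps28 and Mrps36 were placed in neither class. Mrps28 was called lower in both comparisons and Mrps36 in MYO5BΔIEC only. Among all genes tested, 13.8% were called lower in MYO5BΔIEC and 13.7% in MYO5B(G519R). Over whole subunits, 37 of 50 large-subunit and 17 of 27 small-subunit members were called lower in MYO5BΔIEC, and 25 and 12 in MYO5B(G519R). Members close to control in both were Mrpl10, Mrpl38, Mrps2 (-0.09 and -0.14), Mrpl43 (-0.10 and -0.13), Mrpl4 (-0.14 and -0.05) and Mrps26 (-0.16 and -0.02), and none of these passed. With the trends described below removed, Mrpl4 was at -0.30 and -0.31, Mrpl38 at -0.32 and -0.15, and Mrps26 at -0.32 and -0.12. Mrpl10 (-0.04 and -0.02), Mrps2 (-0.02 and -0.06) and Mrpl43 (0.07 and 0.02) stayed near 0, and again none passed.

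The third comparison asked whether Compound-1 moved the family in MYO5BΔIEC enteroids. Against vehicle-treated MYO5BΔIEC no member was called, and the median log2 difference was 0.04, with 22 members lower and 55 higher in the fit. Of the genes tested 0% were called in edgeR, and 1355 genes (7.51%) but no member had an unadjusted p under 0.05. DESeq2 called 100 genes, again without a member. The largest differences were those of Mrpl20, a large-subunit protein, which had 27.9 to 41.7 CPM with vehicle and 31.1 to 67.2 CPM with Compound-1 (0.31 ± 0.23), and of Mrpl30, with 71.1 to 77.3 CPM and 49.2 to 85.0 CPM (-0.16 ± 0.16). The SE of the members ran from 0.12 to 0.26 on the log2 scale. Differences of that order, and larger ones of several SE, could be missed with these cultures. Culture 2 of the Compound-1 group was highest of its 4 for 75 members, and without it the median difference was -0.09.

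Compared with control, the Compound-1-treated MYO5BΔIEC cultures had 44 members called lower and none higher, with backgrounds of 13.7% lower and 15.7% higher. The median log2 fold change was -0.67, and 21 members did not overlap, against 13.6% of all genes. Without control culture 1 these counts were 60 (19.2% of all genes) and 61 (25.5% of all genes), and leaving out any 1 of control cultures 2 to 4 or Compound-1 cultures 1, 3 and 4 gave 23 to 27 members called lower, with 6.80% to 12.6% of all genes. Mrpl42 (-1.19 ± 0.28), Mrpl30 (-1.18 ± 0.24) and Mrps28 (-1.16 ± 0.27) had the largest decreases. Mrpl10 had the largest fitted increase, 0.06 ± 0.14, with 52.2 to 72.2 CPM.

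Set directly against MYO5BΔIEC, MYO5B(G519R) cultures had 70 of 77 members higher in the fit, with a median of 0.17, but no member passed. Of all genes 0.00557% were called, which is 1 gene. There were 5 members that had an unadjusted p under 0.05, all of them higher in MYO5B(G519R), where 772 of all genes (4.3%) had one. The lowest adjusted p of a member was 0.84. The largest difference was that of Mrpl54, a large-subunit protein particular to mitochondria, with 25.7 to 40.7 CPM in MYO5BΔIEC and 36.6 to 58.7 CPM in MYO5B(G519R) (0.44 ± 0.17). The most negative was that of Mrps18b (-0.13 ± 0.16). Whether the family differed between the genotypes was thus not settled by these cultures, and the 18 members called only in MYO5BΔIEC are not shown to differ.

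Over all genes, the fold changes against control rose with the length and the GC content of the principal transcript. For 17938 genes in MYO5BΔIEC, Spearman's rho across genes was 0.349 with length and 0.296 with GC content, and in MYO5B(G519R) it was 0.344 and 0.391. Genes are not independent replicates, and these values are a description. The members are short: their median principal transcript is 1316 bases, against 2532 bases for all genes tested, while their median GC content of 50.1% is near the 49.9% of all genes. In 20 bins of length, the median over genes in the bin that holds this length was -0.28 for MYO5BΔIEC and -0.25 for MYO5B(G519R), and in the shortest bin it was -0.53 and -0.47. When trends with length and GC content were removed from the fit, 42 members were called lower in MYO5BΔIEC (8.29% of all genes), 21 in MYO5B(G519R) (4.48% of all genes) and 31 with Compound-1 (7.81% of all genes). The medians were then -0.50, -0.38 and -0.47, with 75, 75 and 72 of 77 members below control.

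**Figure D4:**
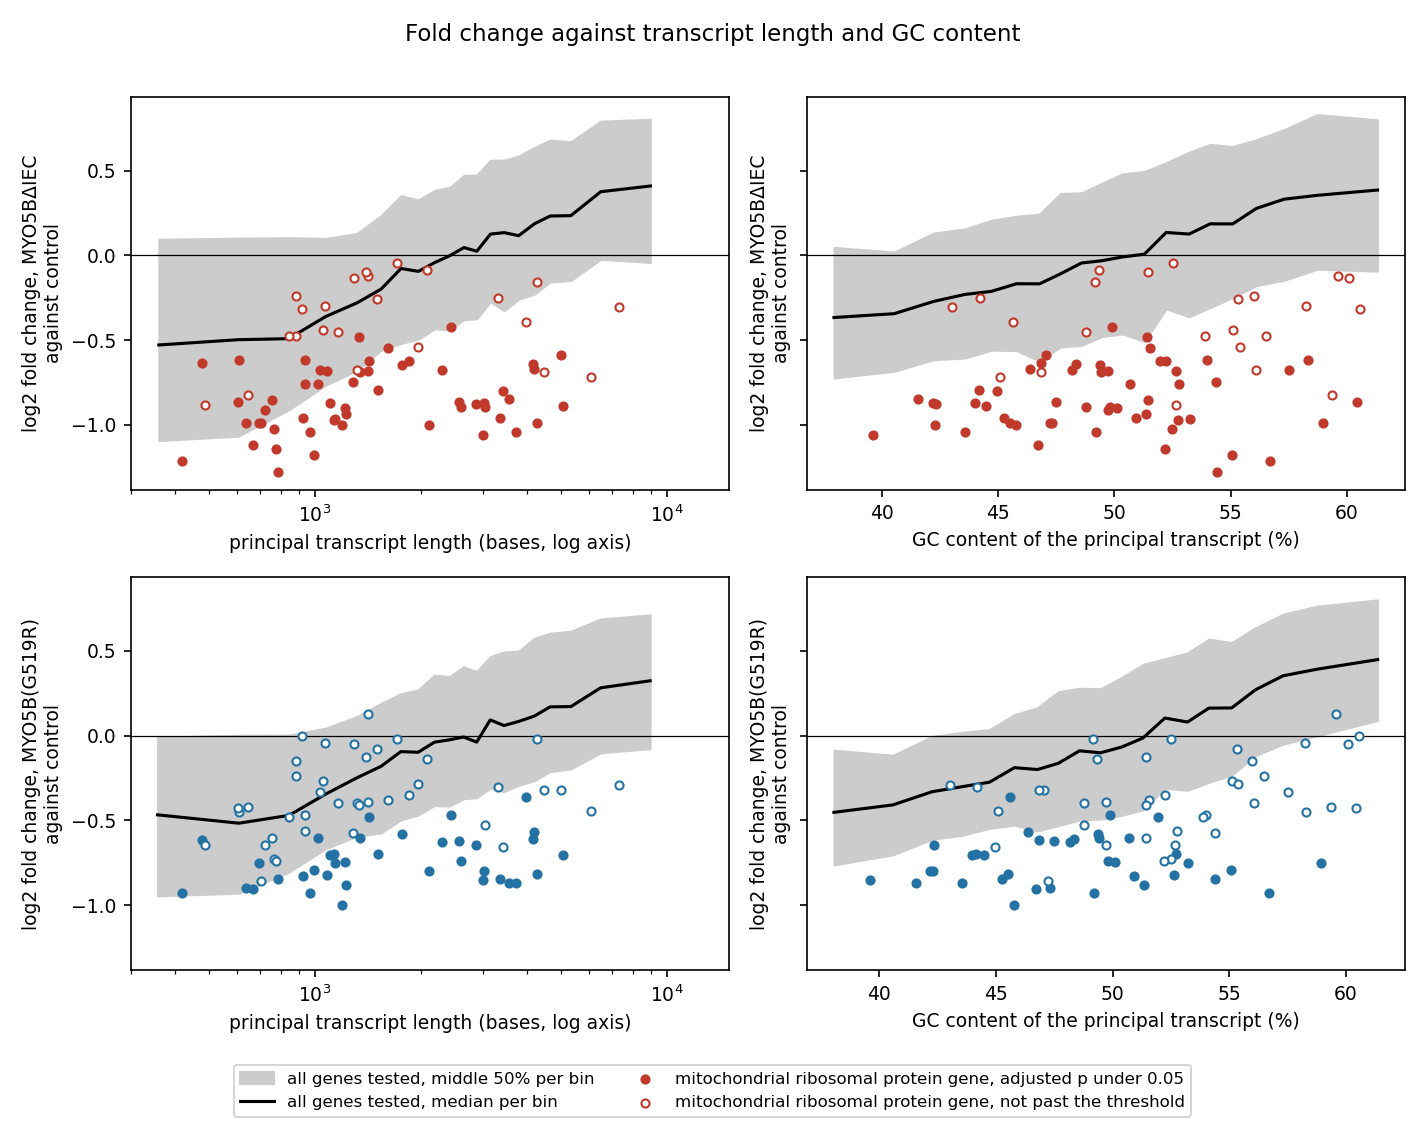
Log2 fold change against control by length (log axis, bases) and GC content (%) of the principal transcript, for MYO5BΔIEC above and MYO5B(G519R) below. Grey bands hold the middle 50% of all genes in 20 bins, lines their medians, and points are the members, filled where the adjusted p was under 0.05. Bin medians rise from -0.53 to 0.41 with length in MYO5BΔIEC, and most members lie below the line.

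Some decreases held under that fit and others did not. Mrps28 (-1.02), Mrps24 (-1.01) and Mrpl52 (-0.94) still passed in MYO5BΔIEC, and Mrps22 (-0.51), Mrpl13 (-0.68) and Mrpl1 (-0.58) still passed in MYO5B(G519R). Mrpl41 (-0.74, adjusted p of 0.052), Mrpl42 (-0.41) and Mrps22 (-0.49, adjusted p of 0.058) no longer passed in MYO5BΔIEC, nor did Mrpl22 (-0.40). In MYO5B(G519R) Mrpl42 (-0.24), Mrpl48 (-0.75), Mrpl24 (-0.33) and Mrpl44 (-0.38) no longer passed. Mrps18c (-0.31 and -0.26) lost its call in both. Mrpl33, at -0.63 and -0.62 and called in both before, was at 0.08 and 0.05. With the length trend alone removed, Mrps34, whose values in MYO5B(G519R) (28.9 to 35.1 CPM) lay within those of control (19.4 to 39.7 CPM), was called higher in MYO5B(G519R) (0.38 ± 0.12, adjusted p of 0.041). Without that step its log2 fold change was -0.00, and its whole span lies inside Mapk8ip3 on the other strand. What lies behind the trends with length and GC content was not tested.

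The rest of the mitochondrial translation machinery was counted by lists, against 13.8% and 13.7% of all genes called lower in MYO5BΔIEC and MYO5B(G519R). Of 5 mitoribosomal proteins under other names, 4 and 3 were called lower. Chchd1, a small-subunit protein, had log2 fold changes of -1.27 and -0.90, Aurkaip1 of -0.91 and -0.69, Ptcd3 of -0.66 and -0.61, and Dap3 of -0.52 and -0.33, the last not passing in MYO5B(G519R). With the trends removed, Chchd1 was at -0.65 and at -0.32, where it no longer passed, and Ptcd3 at -0.38 and -0.29 passed in neither. Among 25 factors of mitoribosome assembly and ribosomal RNA, 11 and 10 were called lower and none higher. Gtpbp10, a GTPase of large-subunit assembly, had log2 fold changes of -0.998 ± 0.13 and -0.85 ± 0.12, and Mterf3 had -0.76 and -0.97. With the trends removed Gtpbp10 still passed (-0.67 and -0.45) and Mterf3 did not (-0.26 and -0.45). From the whole list, only Gtpbp10, Mrm3 and Fastkd2 then passed in MYO5B(G519R). In MYO5BΔIEC these passed together with Mtg1, Mrm2, Malsu1, Ngrn and Rcc1l. Under that fit, 8.29% and 4.48% of all genes were called lower in MYO5BΔIEC and MYO5B(G519R). Of 14 translation factors, 4 were called lower in each, with the release factor Mtrf1 at -1.02 and -0.90 and the recycling factor Mrrf at -0.85 and -0.77.

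The aminoacyl-tRNA synthetases and related enzymes of mitochondria, which charge the transfer RNAs, were called lower in 5 of 20 genes in MYO5BΔIEC and 3 of 20 in MYO5B(G519R), where Vars2 (0.69) and Aars2 (0.49) were called higher. The share in MYO5B(G519R) is near that of all genes, and with the trends removed Vars2 (0.12) and Aars2 (-0.10) no longer passed. Of 12 genes for replication and transcription of mitochondrial DNA, 5 were called lower in each comparison. Tfam, which packages the genome and starts its transcription, had log2 fold changes of -0.93 ± 0.14 and -0.75 ± 0.13, and the single-strand binding protein Ssbp1 had -0.99 and -0.69, the latter -0.44 and not passing with the trends removed. Polg, the catalytic subunit of the polymerase, was called higher in MYO5B(G519R) (0.56), but not with the trends removed (0.12). Of the 2 ribosomal RNAs, mt-Rnr2 was called lower (-0.88 ± 0.26 and -1.16 ± 0.18) and mt-Rnr1 did not pass (-0.54 and -0.69), and neither passed with the trends removed. Libraries were made from polyadenylated RNA, and no step selected ribosomal RNA.

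**Figure D5:**
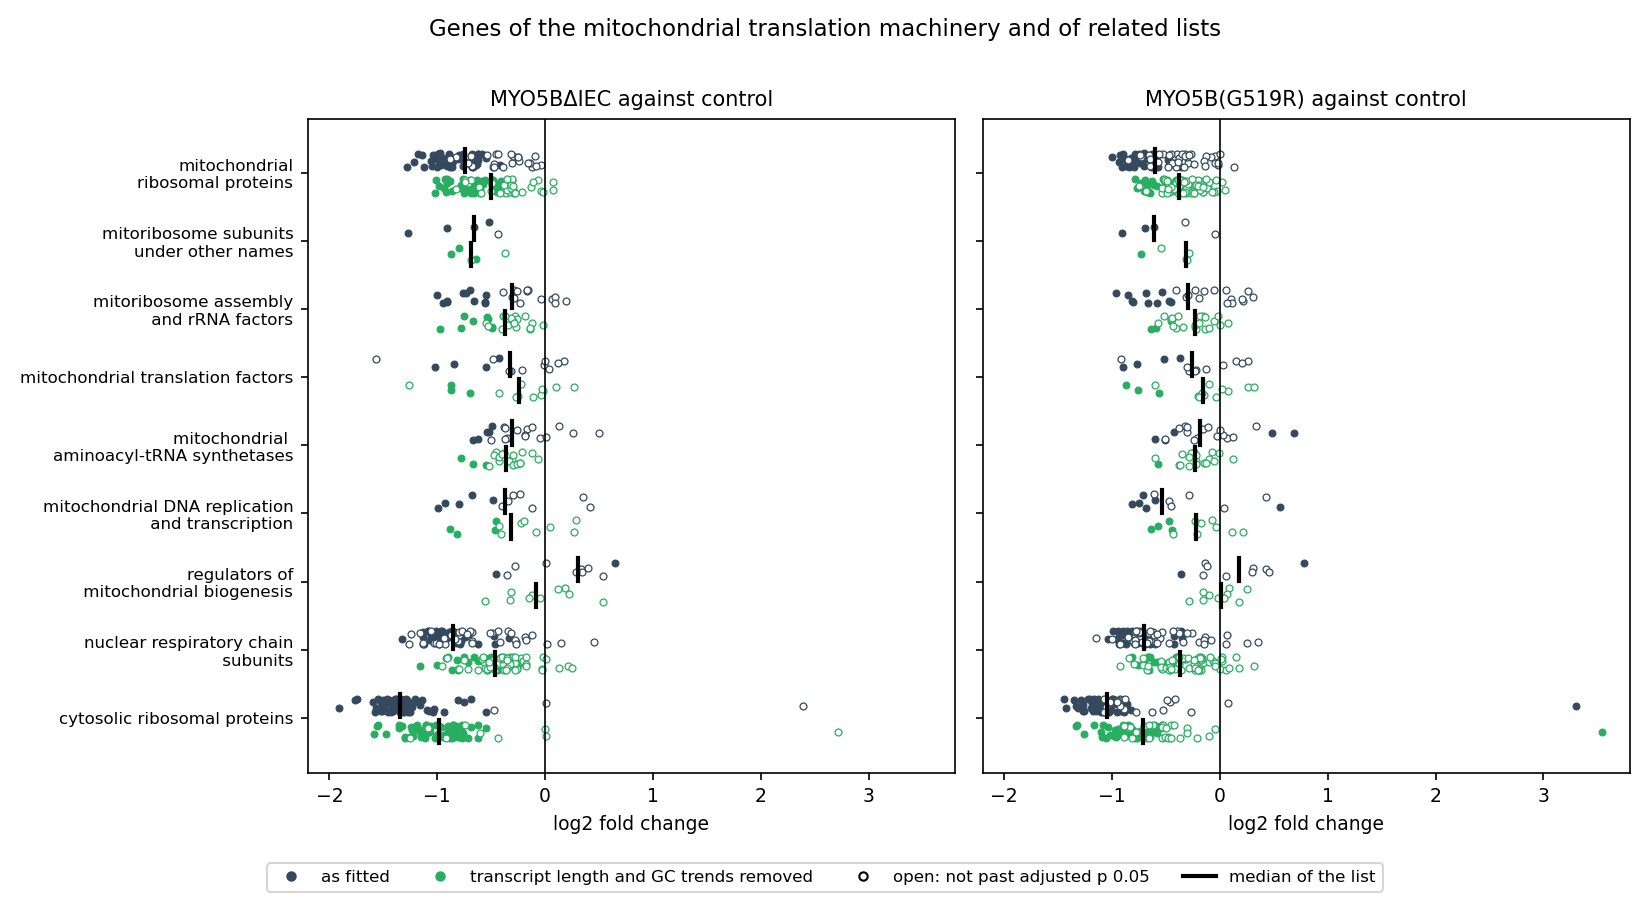
Fitted log2 fold change against control for genes of each list in MYO5BΔIEC and MYO5B(G519R). Dark points are the values as fitted, green points those with trends of transcript length and GC content removed, open points did not pass an adjusted p of 0.05, and black bars are list medians. The bar of cytosolic ribosomal proteins is lowest, at -1.35 in MYO5BΔIEC and -1.05 in MYO5B(G519R), and the outlying point at 3.30 is Rpl26.

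The family did not stand alone. Cytosolic ribosomal proteins were called lower in 73 of 76 genes in MYO5BΔIEC and 56 of 76 in MYO5B(G519R), with medians of -1.35 and -1.05. Nuclear subunits of the respiratory chain, whose partners the mitoribosome makes, were called lower in 38 and 28 of 76 genes, with medians of -0.86 and -0.70. With the trends removed these counts were 67 and 48 for the cytosolic proteins and 21 and 14 for the respiratory chain. Markers of cell types were also called. For proliferation markers the summed level over 10 genes was 2207 to 2523 CPM in control cultures, against 1402 to 1967 CPM for MYO5BΔIEC, 1029 to 1954 CPM with Compound-1 and 1758 to 2286 CPM for MYO5B(G519R), and 5 and 4 of the 10 were called lower in the first 2 comparisons. Of 5 stem and progenitor markers only Olfm4 was called lower, with 1570 to 5712 CPM in control, 318 to 1293 CPM in MYO5BΔIEC and 573 to 1801 CPM in MYO5B(G519R). Among 10 enterocyte markers, 2 were called higher in MYO5BΔIEC, Anpep (1.58 ± 0.18) and Alpi (1.23 ± 0.30). In MYO5B(G519R), Anpep was called higher (1.23 ± 0.18) and Sis lower (-1.10 ± 0.36). Fabp2 (-1.33) and Lct (1.08) did not pass in MYO5BΔIEC, nor did Fabp2 (-1.54) and Alpi (1.08) in MYO5B(G519R). Enterocyte markers also went both ways in the Compound-1 cultures against control. Alpi (1.56) and Anpep were called higher there, and Fabp2 (-2.11) and Sis (-1.48) lower. Among 10 epithelial markers, Vil1 (1.08), Cdh1 (0.92), Krt20 (0.87) and Krt8 (0.65) were called higher in MYO5BΔIEC, and Vil1 (0.90), Krt8 (0.55) and Cdx2 (0.43) in MYO5B(G519R). With Compound-1, Vil1, Cdh1, Krt8, Krt18 and Krt20 were called higher and Fabp1 lower (-2.38). Fabp1 was at -1.56 in MYO5BΔIEC and -1.62 in MYO5B(G519R) without passing. The part of cell composition in the values of the family was not tested.

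Among 10 regulators of mitochondrial biogenesis, Gabpa, the DNA-binding subunit of the ETS-family factor GABP, was called lower by a little (-0.45 ± 0.14 and -0.36 ± 0.11). Ppargc1b, a coactivator of mitochondrial genes, was called higher (0.65 ± 0.21 and 0.78 ± 0.15). Neither passed with the trends removed, and the other 8 did not pass in either comparison.

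Promoters were read from RefSeq (GRCm38.p6) for 69 of the 78 members, as 250 bases before and 50 after the start. For 51 of the 69 this start lay within 100 bases of the gene's start given with the counts. For Mrps18c it lay 132 bases away. Motif positions below are relative to the RefSeq start. Promoter entries were missing for Mrps35, Mrpl13, Mrpl15, Mrpl4, Mrps28, Mrpl38, Mrpl54, Mrps34 and Mrpl19. Motifs of factors known for nuclear genes of mitochondria were sought on both strands. The ETS core CCGGAAG stood in 24 of 69 member promoters (34.8%), against 9.15% of 27025 promoters in all. The NRF1 core CGCATGCG stood in 10.1% against 1.90%, the YY1 core AAGATGGCG in 11.6% against 1.49%, the Sp1 box GGGCGG in 49.3% against 36.0%, and the E-box CACGTG in 7.25% against 7.20%. None of the 5 strings contains another, and at least 1 stood in 53 member promoters. A match is a description of letters and not a site of binding.

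The promoters of Mrpl52 and Mrps22 are shown because these members had among the largest decreases and both hold an ETS core close to the start. Each runs 5′ to 3′ on the strand of its gene, from 250 bases before to 30 after the start, in GRCm38.p6. Capitals mark motif matches: the ETS core or its reverse complement in both, and the Sp1 box in Mrps22.
Mrpl52, chr14:54426659-54426938, plus strand: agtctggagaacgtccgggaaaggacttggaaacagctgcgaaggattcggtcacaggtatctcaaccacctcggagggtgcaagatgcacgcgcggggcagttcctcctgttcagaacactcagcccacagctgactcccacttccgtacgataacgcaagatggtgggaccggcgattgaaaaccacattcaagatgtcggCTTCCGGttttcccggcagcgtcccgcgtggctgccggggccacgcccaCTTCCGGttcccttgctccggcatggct
Mrps22, chr9:98601650-98601929, minus strand: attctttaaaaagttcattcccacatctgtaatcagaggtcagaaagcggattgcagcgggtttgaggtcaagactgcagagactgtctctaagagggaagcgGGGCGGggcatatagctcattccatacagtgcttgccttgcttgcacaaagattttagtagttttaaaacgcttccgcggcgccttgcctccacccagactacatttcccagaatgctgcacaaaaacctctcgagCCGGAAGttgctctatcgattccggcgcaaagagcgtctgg

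Over the family, 25 ETS cores with their whole surroundings in the promoter were found in 21 members, and 22 of these lay within 60 bases of the start. The following 31-base windows, turned so that the core (capitals) reads CCGGAAG, were chosen by the core and are shown for their flanks, which differ, and for their place, which is near the start in all but that of Mrps18c. The number is the position of the centre relative to the start.
Mrpl52, centre -44: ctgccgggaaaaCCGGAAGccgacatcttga
Mrpl52, centre 5: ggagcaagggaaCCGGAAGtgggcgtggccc
Mrps22, centre -8: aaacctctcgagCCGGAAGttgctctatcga
Mrpl22, centre -50: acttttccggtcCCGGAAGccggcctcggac
Mrpl34, centre -34: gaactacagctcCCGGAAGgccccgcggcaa
Mrps21, centre 21: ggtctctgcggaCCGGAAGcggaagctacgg
Mrps18a, centre -23: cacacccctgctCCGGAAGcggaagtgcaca
Mrps18c, centre -153: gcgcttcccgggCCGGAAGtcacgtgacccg

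Members called lower stood on both sides of this split. In MYO5BΔIEC, 16 of 23 measured members with an ETS core were called lower, with a median of -0.80, and 32 of 45 without one, with a median of -0.76. In MYO5B(G519R) the counts were 11 of 23 and 22 of 45, with medians of -0.64 and -0.58. Among the windows printed, Mrpl52 and Mrps22 were called lower in both comparisons, while Mrps18a and Mrps21 did not pass in either.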

How the data were processed

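RNA was measured by paired-end sequencing of poly-A-selected libraries from 16 cultures. According to the methods and the submitters' processing notes, reads were aligned to GRCm38/mm10 with STAR 2.5, TopHat is also named, and reads per gene were counted with HTSeq 0.6.1. The deposited gene counts are whole numbers without normalization, and the authors also deposited FPKM values, made from the same counts with the gene length in the table. Kit strandedness and the treatment of reads shared by several genes are not given in the sources used here, so values of overlapping genes and of members with processed pseudogenes are uncertain.

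Groups came from the sample labels. The main test was the quasi-likelihood F test of edgeR 4.0.16 (R 4.3.3) on the counts of 2 groups at a time, with TMM library sizes. A gene was kept when 2 or more of the 8 libraries had 10 or more counts. Calls used Benjamini-Hochberg adjustment over all genes tested, with a threshold of 0.05. Each SE is the absolute log2 fold change divided by the square root of F. The study describes the cultures of a group as coming from separate mice, with no mapping between groups, and p-values measure the spread between these cultures. Principal transcripts, their length and GC content came from the GENCODE annotation of the same build, promoters from RefSeq, and trends were removed with loess offsets of span 0.3. The code was tested on simulated counts of MYO5BΔIEC against control. The main fit recovered 11 of 60 changes of 1.5-fold, 42 of 72 of 2-fold and 66 of 68 of 4-fold, and called 5 unchanged genes. When length and GC trends of a set size were added to the counts, it called 128 unchanged genes, and 8 with both trends removed.

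Members named one by one were the 8 with the largest fitted changes among those called in MYO5BΔIEC and in MYO5B(G519R), the 5 highest and 5 lowest per kilobase, the largest changes in the other comparisons, members of the role lists, and members called against the main direction in an alternative. Mrps2, Mrpl3, Mrpl4, Mrpl43 and Mrps26 were named after their values were seen. The members and all lists were chosen with earlier results of these data known.

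Alternatives were DESeq2 1.42.0, its size factors within edgeR, library sizes without mitochondrially encoded genes, all 4 groups fitted together, filterByExpr or no filter, a block for the replicate number, a trend on gene length with and without that block, limma 3.58.1 on log2(FPKM + 1), with and without a minimum of 1 FPKM, and on log2(FPKM + 0.1), and each culture left out in turn. Trends on principal transcript length, on GC content and on both were added after seeing the data.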

Additional observations from a re-analysis of the deposited data

Results flagged for a closer look

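In 13 of 164 groups of 4 cultures (7.93%), 1 culture of a named member lay far from the other 3, with its gap to the nearest divided by the group's range above Dixon's critical value. Chance flags about 1 in 20 such groups. Most of these were low values of control culture 1. Mrpl30 had 90.6 CPM there against 174 to 181 CPM in the other controls, Mrpl35 had 45.1 against 71.0 to 73.9 CPM, Mrpl40 had 25.4 against 52.1 to 54.6 CPM, Mrpl41 had 18.4 against 54.1 to 59.1 CPM and Mrpl42 had 69.3 against 157 to 169 CPM. Mrpl46 had 35.4 against 58.6 to 62.5 CPM, Mrpl47 had 34.5 against 48.5 to 49.3 CPM, Mrpl48 had 45.7 against 76.3 to 81.1 CPM, Mrps18c had 14.7 against 33.1 to 35.7 CPM and Mrps28 had 29.1 against 53.5 to 57.9 CPM. These 10 values come from 1 library and are not separate observations.

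The other 3 were high values. In culture 4 of MYO5BΔIEC, Mrps18c had 18.3 CPM against 13.5 to 14.1 CPM in the other cultures, and Mrps22 had 51.7 against 31.1 to 33.2 CPM. In culture 4 of MYO5B(G519R), Mrpl44 had 41.9 against 30.1 to 31.7 CPM.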

How the results depend on the processing

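Counts of members called lower are given against control in the order MYO5BΔIEC, MYO5B(G519R), MYO5BΔIEC with Compound-1, beside 54, 37 and 44. They were 57, 41 and 44 with DESeq2, 53, 33 and 43 with its size factors, 59, 43 and 55 with all groups in 1 fit, and 44, 27 and 34 with the trend on principal transcript length removed. With limma on log2(FPKM + 1) and no filter they were 33, 18 and 25. With both trends removed the MYO5B(G519R) count was 21, and with the transcript length trend alone 1 member was called higher there. Leaving out 1 culture gave 35 to 66, 18 to 60 and 23 to 60, where the fewest fell to cultures other than control culture 1 and the most to its omission. Over these fits the share of all genes called lower moved too, from 6.80% to 22.1%. For the other settings, apart from both trends removed, shares of all genes are not given here. Shifts in these counts are thus not read as results about the family. Against MYO5BΔIEC, no setting called a member with Compound-1 or in MYO5B(G519R).

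Correlations of the deviations of same-numbered cultures were -0.18 to 0.38 over all comparisons. They were positive in all 4 pairs of MYO5B(G519R) and MYO5BΔIEC (0.027 to 0.38) but over 0.1 in only 2, and in no comparison were all 4 over 0.1, so the labels' replicate numbers were not taken to pair the cultures. Under a replicate block the counts were 42, 30 and 46, and 41, 32 and 38 with the gene length trend removed as well. Shares of all genes are again not given for these.

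Directions turned for Mrpl10 and Mrpl38, which lay near 0, and for other members. Of these, Mrpl33 had been called lower in both comparisons (-0.63 and -0.62), and Mrpl34 and Mrpl54 had been at -0.45 and -0.43 in MYO5B(G519R) without passing. For Mrpl10 in MYO5BΔIEC the log2 fold change was 0.13 with the gene length trend removed, 0.12 with the block as well and 0.078 with the transcript length trend removed. For Mrpl10 in MYO5B(G519R) it was 0.14, 0.15 and 0.095 under these, 0.016 with DESeq2, 0.010 with its size factors, and with limma unfiltered or not, and 0.011 with log2(FPKM + 0.1), and leaving out 1 culture gave -0.053 to 0.010. For Mrpl10 with Compound-1 against control it was -0.036 with the GC trend removed, and -0.065 to 0.10 with 1 culture left out. With both trends removed, Mrpl33 was at 0.077 and 0.048 in MYO5BΔIEC and MYO5B(G519R), and Mrpl38 at -0.15 in MYO5B(G519R), or -0.30 with the GC trend alone. With the transcript length trend removed, Mrpl38 was at 0.088 and Mrps18a at 0.14 in MYO5BΔIEC, and in MYO5B(G519R) Mrpl34 was at 0.018, Mrpl54 at 0.078 and Mrps18a at 0.19. Mrpl54 was at 0.012 there with the gene length trend and the block. In MYO5B(G519R) against MYO5BΔIEC, Mrps18b ran from -0.23 to 0.033 with 1 culture left out. The cause of these changes was not tested. At 4 cultures a group, differences of several times the SE given beside a member could also go uncalled.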

Other observations

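Processed pseudogenes named after members had low mean counts. Mrpl48-ps had a mean of 60.1 and a maximum of 229 counts per library, and Mrpl48 itself had 835 to 2426 counts. The mean was 28.6 counts for Mrpl23-ps1, and 6.94 and 3.25 counts for Mrps36-ps1 and Mrps36-ps2. Mrps36-ps3 had 0 in every library. Mrpl46 and Mrps11 lie on opposite strands and share 413 bases. Mrpl46 was called lower in MYO5BΔIEC (-0.97 ± 0.21) and Mrps11 did not pass (-0.44 ± 0.26).

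The spread between cultures differed by group. The median coefficient of variation over the 77 measured members was 19.5% in control cultures, 13.3% for MYO5BΔIEC, 21.98% with Compound-1 and 16.6% for MYO5B(G519R). In control it ran from 0.817% for Mrps18a to 50.2% for Mrps21.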
